A study of Mus musculus with 2 samples.

Results

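The keratin gene family was described across the cell classes of 2 droplet libraries of mouse uterine cells. Its members were all genes whose symbol is Krt followed by digits alone, 49 of the 32285 genes in the count tables. They comprised 26 type I and 23 type II genes. By the mm10 annotation 25 lie on chromosome 11 between 99232761 and 100269871, and 24 on chromosome 15 between 101347444 and 102032027. The DOX plus AMH library came from mice given doxorubicin at 3 mg/kg with anti-Müllerian hormone (AMH) at 0.75 mg/kg, and the DOX library from mice given doxorubicin at 3 mg/kg alone. All animals of both groups therefore carried doxorubicin, a DNA-damaging anthracycline, and no untreated library was analysed here. Uteri were taken 4 h after treatment, those of 5 animals were pooled per group, and the tissue was digested with papain and collagenase A before 10x Genomics 3′ v3.1 libraries were made. The series text gives 2 weekly doses and postnatal day 25, although it does so for the bulk libraries; neither strain nor schedule is labelled for these pools.

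Keratins are the intermediate filament proteins of epithelial cells. Each filament is built from pairs of a type I and a type II chain, and the pair in use tells simple from stratified epithelium and, within a stratified epithelium, basal from suprabasal layers. The lumen and glands of the uterus are lined by simple columnar epithelium with Krt8, Krt18, Krt19 and Krt7, the serosa by mesothelium with the same simple keratins, and the vagina and outer cervix by stratified squamous epithelium with Krt5 and Krt14 in its basal layer and Krt4 and Krt13 above it. Stromal, muscle, endothelial and blood cells are not keratin-rich tissues, so their keratin counts also serve as a reading of free RNA, the RNA of broken cells that enters every droplet.

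The DOX plus AMH library held 97887259 unique molecular identifiers (UMIs, each standing for 1 captured RNA molecule) in 8083 barcodes, and the DOX library 129530270 in 9258. After filtering and doublet removal 6745 and 7416 cells were kept, with medians of 10109 and 13747 UMIs. The libraries shared 17 barcodes, of which 13 were kept in each. Cells were clustered with the keratin genes left out, and clusters were named from other marker genes. The DOX plus AMH library held 486 squamous epithelial-like, 148 columnar epithelial-like, 138 mesothelial-like, 3630 stromal-like, 1485 mural-like (smooth muscle and pericyte), 299 endothelial-like and 387 blood-derived-like cells, and the DOX library 7, 349, 95, 4673, 1143, 324 and 497. All 10 columnar, 8 mesothelial and 7 stromal defining markers were detected in their own class in both libraries. The 10 columnar markers summed to 1566 and 1564 CPM (counts per 1e+06 UMIs) in columnar epithelial-like cells, and the 8 mesothelial markers to 2521 and 3002 CPM in mesothelial-like cells, for DOX plus AMH and DOX in that order. The like columnar sums held opposite differences, since Calb1 had 212 CPM in DOX plus AMH and 44.5 CPM in DOX, and Sprr2f 14.98 and 107 CPM. Squamous epithelial-like cells made up 7.21% of kept cells in DOX plus AMH and 0.0944% in DOX. With 1 library per group nothing could be tested between groups. Intervals are exact 95% intervals that cover counting error only, and log2 ratios divide the DOX plus AMH level by the DOX level. The kit tags each RNA molecule once near its 3′ end, so CPM was not divided by gene length and levels of different genes were set side by side as molecules.

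Promoter sequence is shown for 4 keratins that represent the patterns described below, and each was taken from RefSeq on GRCm38.p6 as the 250 bases before the transcription start. Krt5 is the basal squamous type II keratin, Krt13 the suprabasal squamous type I keratin, Krt18 the simple-epithelial type I keratin, and Krt76 a type II keratin known from oral epithelium in mice. Capitals mark matches to 4 motifs searched on both strands: TATAAA is the TATA box, ATAAAA a variant of it, TGANTCA the AP-1 motif and GGGCGG the GC box.
Krt5 (chr15:101712906-101713155, minus strand): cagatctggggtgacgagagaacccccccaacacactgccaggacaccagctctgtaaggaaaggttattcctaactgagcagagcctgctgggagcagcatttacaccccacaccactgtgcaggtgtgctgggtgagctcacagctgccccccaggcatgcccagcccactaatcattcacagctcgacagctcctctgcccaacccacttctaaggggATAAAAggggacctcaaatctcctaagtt
Krt13 (chr11:100121567-100121816, minus strand): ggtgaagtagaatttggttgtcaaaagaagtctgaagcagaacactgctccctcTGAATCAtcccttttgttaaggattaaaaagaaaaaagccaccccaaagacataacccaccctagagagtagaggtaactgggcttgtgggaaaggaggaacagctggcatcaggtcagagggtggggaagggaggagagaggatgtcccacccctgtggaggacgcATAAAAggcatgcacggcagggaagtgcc
Krt18 (chr15:102027966-102028215, plus strand): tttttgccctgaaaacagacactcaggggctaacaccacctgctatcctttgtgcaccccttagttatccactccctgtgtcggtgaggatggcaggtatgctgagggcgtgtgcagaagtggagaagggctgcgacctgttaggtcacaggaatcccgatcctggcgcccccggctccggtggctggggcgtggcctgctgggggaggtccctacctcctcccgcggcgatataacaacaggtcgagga
Krt76 (chr15:101892921-101893170, minus strand): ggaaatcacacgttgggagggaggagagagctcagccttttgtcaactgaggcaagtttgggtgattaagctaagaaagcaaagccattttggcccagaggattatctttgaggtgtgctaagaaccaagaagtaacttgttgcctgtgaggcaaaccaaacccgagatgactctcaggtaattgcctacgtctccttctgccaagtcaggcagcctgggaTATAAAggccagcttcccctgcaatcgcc
Krt5 and Krt13 share the letters ATAAAA 29 bases before the start, Krt76 has TATAAA at the same distance, and the Krt13 window also holds 1 TGANTCA. The Krt18 window holds none of the 4, which says only that these letters are not in it. Of 36 keratin promoter windows (35 genes), 16 held the TATA box, 19 its variant, 2 the AP-1 motif and 2 the GC box, against 12.4%, 17.0%, 6.75% and 32.7% of all 32851 windows of that length. The TATA box and its variant can overlap. Both windows with the AP-1 motif were of Krt13, whose second window, for a start 989 bases from the annotated 5′ end, is not shown. A match is a description of letters, not a binding site.

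Keratins took up 0.221% of the UMIs of kept cells in DOX plus AMH (197129 UMIs) and 0.0344% in DOX (40065 UMIs). Of the 49 members, 28 had at least 20 UMIs over both libraries, 18 had between 1 and 19, and Krt9, Krt27 and Krt34 had none. The 4 most abundant members held 70.7% of all keratin UMIs and the first 15 held 99.4%. The members of squamous epithelium led in DOX plus AMH: Krt5 had 61089 UMIs in DOX plus AMH and 686 in DOX, Krt15 42233 and 1097, Krt14 40258 and 261, and Krt13 19194 and 56. The simple-epithelial members were nearer to each other: Krt18 had 11321 UMIs in DOX plus AMH and 10853 in DOX, Krt8 6115 and 10348, Krt19 5023 and 7719, and Krt7 3765 and 2405 (log2 ratios of CPM -0.38 for Krt8 and 1.03 for Krt7). The summed keratins of all kept cells had a log2 ratio of 2.68 (2.67 to 2.70). That sum followed the cells sampled: squamous epithelial-like cells gave 87.5% of keratin UMIs in DOX plus AMH and 4.69% in DOX, whereas columnar epithelial-like cells gave 6.76% and 70.0%. With 1 pool per group, the number of squamous cells taken and the treatment cannot be told apart, so keratins were compared within classes.

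**Figure D1:**
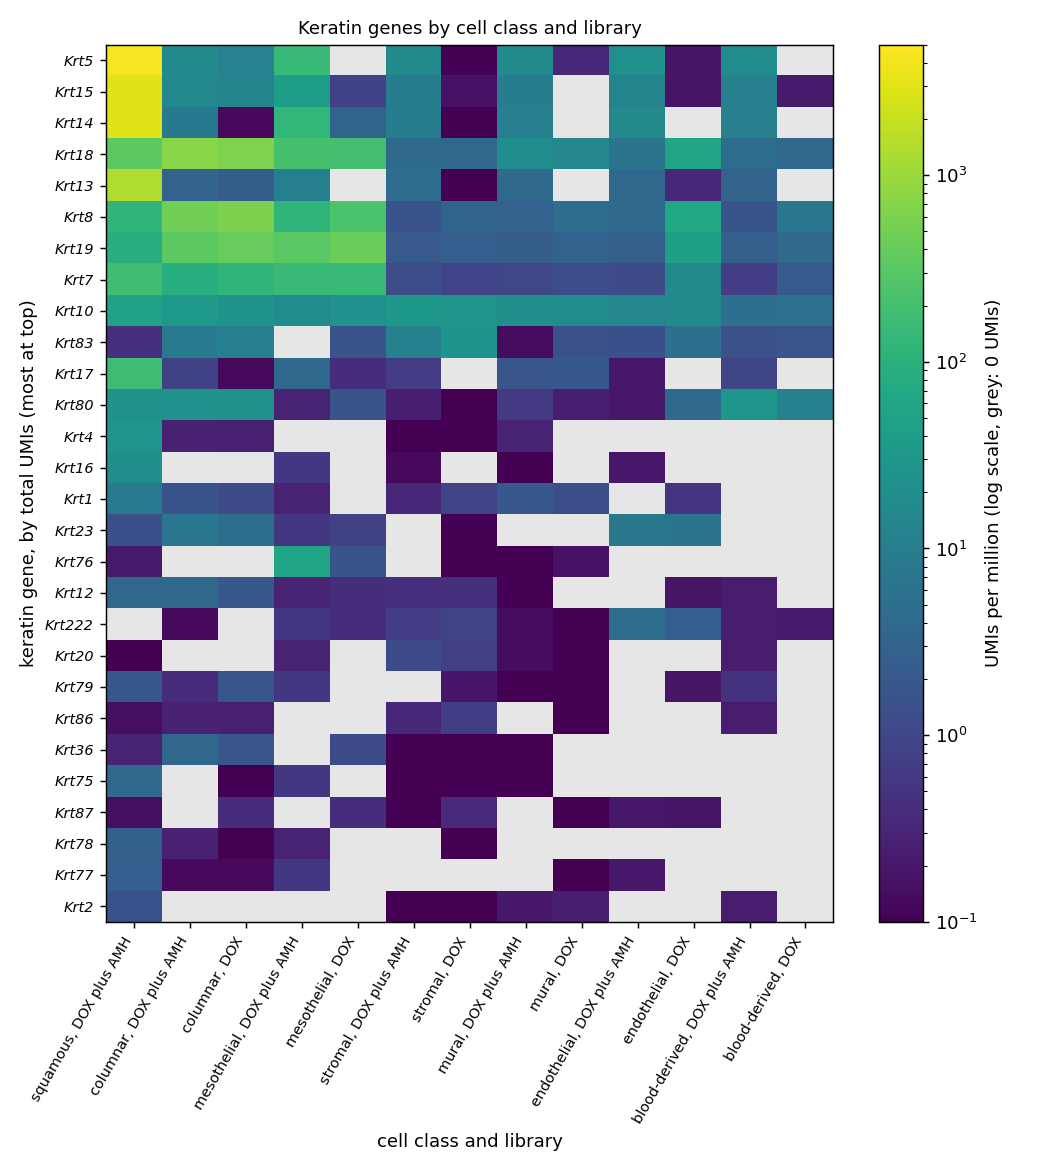
Heat map of the 28 keratin genes with at least 20 UMIs (rows, most UMIs at the top) by cell class and library (columns), coloured by CPM on a log scale with grey for 0 UMIs; the DOX squamous class is left out because it had 7 cells. Krt5, Krt15, Krt14 and Krt13 are brightest in squamous epithelial-like cells (4391, 3056, 2897 and 1395 CPM), and Krt18, Krt8, Krt19 and Krt7 in the columnar, mesothelial and squamous columns.

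Squamous epithelial-like cells of DOX plus AMH devoted 1.28% of their UMIs to keratins, the highest share of any class. The share was 1.08% in the median cell and ran between 0.0215% and 3.53%. Krt5 (4391 CPM, 95% interval 4355 to 4426) and Krt14 (2897 CPM), the pair of basal cells, were found together in 443 of the 486 cells. Krt15 (3056 CPM), a type I keratin of basal and stem-like cells, lay between them, and Krt17 (176 CPM), which marks appendage and activated epithelium, was far lower. Of the suprabasal members, Krt13 reached 1395 CPM, its partner Krt4 28.0 CPM, and the epidermal pair Krt10 and Krt1 51.2 and 8.60 CPM. Neither pair was balanced at the RNA level, since Krt13 and Krt10 far exceeded their partners. The simple keratins were present as well: Krt18 had 323 CPM, Krt7 181, Krt8 125 and Krt19 88.0. All 12 squamous markers used for the name were detected in these cells, at 7653 CPM in sum.

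The class held 2 clusters in DOX plus AMH, which were separated without the keratins. The larger, of 327 cells, had 702 CPM of Trp63, the transcription factor of basal cells, and the smaller, of 159 cells, had 149 CPM together with Spink5, Sprr1a, Ly6d, Muc5b and Tff1 among its leading genes. Krt13 had 2880 CPM in the lower-Trp63 cluster and 253 CPM in the higher-Trp63 cluster, a log2 difference of 3.51 (3.44 to 3.58). Krt4 (58.0 and 4.85 CPM), Krt19 (179 and 17.7 CPM) and Krt16 (40.4 and 7.87 CPM), a wound-associated keratin, were also higher there, by 3.58, 3.34 and 2.36 on the log2 scale. The simple pair shared that direction, with Krt18 at 542 and 154 CPM and Krt8 at 206 and 62.3 CPM (1.81 and 1.72), as did Krt1 (1.65), Krt10 (1.16) and Krt80 (1.10). Krt5 (5055 and 3880 CPM) and Krt14 (3283 and 2599 CPM), by contrast, differed by only 0.38 and 0.34 on the log2 scale. Krt15 went the other way, at 1989 CPM in the lower-Trp63 cluster and 3878 CPM in the higher-Trp63 cluster (log2 difference -0.96, -0.99 to -0.93), and Krt17 did so by -0.36. The lower-Trp63 cluster thus held the basal pair at a like level, with more Krt13, Krt4 and Krt19 and less Krt15. These cells come from 1 pool, so the intervals carry no spread between animals.

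In DOX 7 cells fell in the same class, all in the higher-Trp63 cluster, too few for a ratio. Their keratin share was 1.07% in the median cell, between 0.222% and 1.63%, against the 1.08% of the DOX plus AMH cells. Krt5 was found in 6 of the 7 with a median of 52 UMIs (0 to 212), Krt14 in all 7 with a median of 40 (2 to 95), and Krt15 in 6 with a median of 85 (0 to 321). Krt17 had a median of 15 UMIs (0 to 32), whereas Krt13 was found in 3 cells with at most 9 UMIs. The few DOX cells thus carried the basal pair, Krt15 and Krt17.

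**Figure D2:**
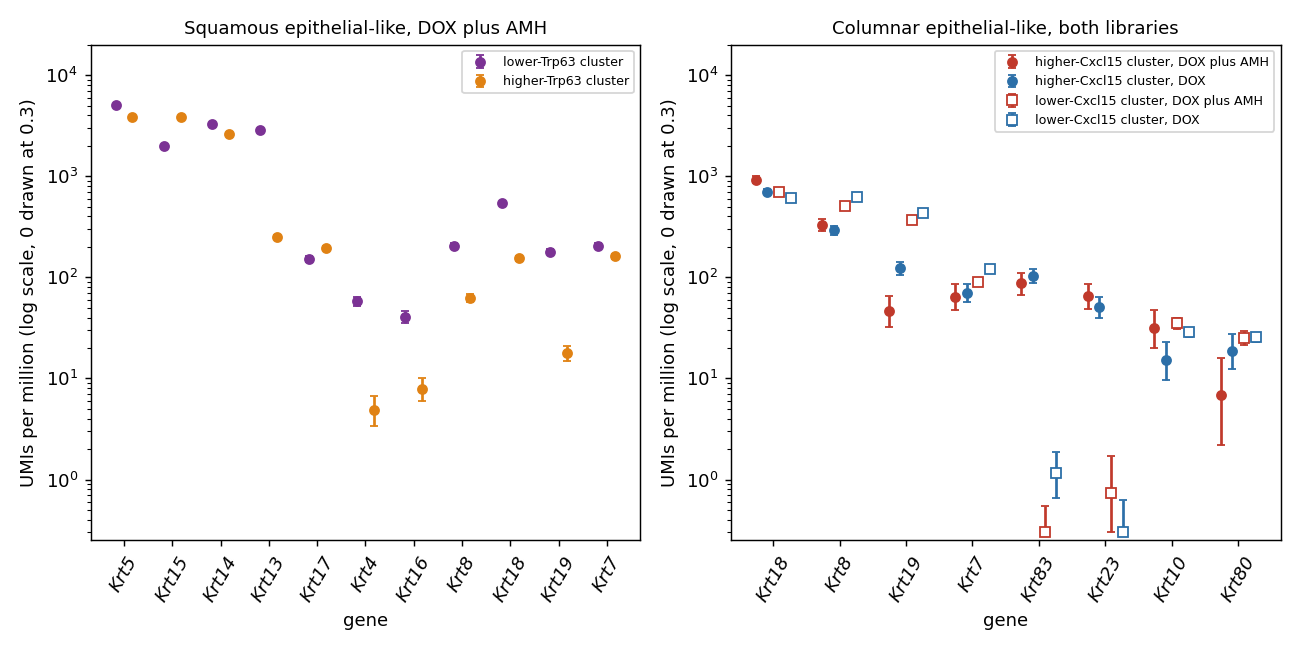
Level in CPM on a log scale, with exact 95% Poisson intervals, of keratins in the 2 squamous clusters of DOX plus AMH (left) and in the 2 columnar clusters of both libraries (right). The squamous clusters differ by colour alone. Among the columnar clusters filled points are the higher-Cxcl15 cluster and open points the lower-Cxcl15 cluster. Values below the axis floor are drawn at it. Krt13 separates the squamous clusters (2880 and 253 CPM) while Krt5 does not (5055 and 3880 CPM), and Krt83 and Krt23 stand out in the higher-Cxcl15 columnar cluster of both libraries.

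Columnar epithelial-like cells had nearly the same keratin total in both libraries, 1768 CPM in DOX plus AMH and 1832 CPM in DOX (log2 ratio -0.05, -0.08 to -0.02). Of 6 keratins with at least 100 UMIs over both libraries and at least 20 CPM in the higher, none was 2-fold apart. Over all 7042 genes so counted in this class 0.724% were 2-fold or more higher in DOX plus AMH and 1.02% lower by as much. The median log2 ratio was -0.18 over the 6 keratins and -0.04 over all genes counted. Krt18 had 725 CPM in DOX plus AMH and 618 CPM in DOX (0.23, 0.18 to 0.28). Its type II partner Krt8 went the other way, at 490 and 592 CPM (-0.27, -0.33 to -0.22). Krt19 (334 and 399 CPM, -0.26) and Krt7 (87.8 and 117 CPM, -0.42, -0.55 to -0.29) were lower, Krt10 (34.9 and 27.4 CPM, 0.35) was higher, and the interval of Krt80 (23.3 and 24.9 CPM, -0.09) included 0. Krt18, Krt8, Krt19 and Krt7 had the highest levels of the class in both libraries. With a marker gate per cell the ratios of Krt18 and Krt7 were 0.0613 and -0.19.

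Krt18 had a UMI in 90.5% of columnar epithelial-like cells of DOX plus AMH and 91.7% of those of DOX, where the median cell held 29351 and 26395 UMIs. The shares were 4.65% and 3.62% of blood-derived-like cells, with medians of 8419 and 7935 UMIs. Thinned to 2000 UMIs per cell, the columnar shares were 69.0% and 71.6% and the blood-derived shares 1.43% and 1.32%. The simple keratins of this class therefore lay far above the free RNA in either library. The squamous keratins were unevenly spread. Krt5 had 129 UMIs in the DOX plus AMH cells and 188 in the DOX cells, but it was found in 35.1% of cells in DOX plus AMH and 1.15% in DOX. A single DOX cell of 126418 UMIs held 174 of the 188, with 144 Krt15 UMIs and no Krt14, and another held 12. In DOX plus AMH, Krt5 and Krt14 stood at 17.1 and 8.09 CPM, close to the 18.7 and 11.0 CPM of blood-derived-like cells. Columnar cells were deeper, so a like CPM there means more UMIs per cell and does not by itself mark free RNA. Krt5 had a UMI in 17.8% of blood-derived-like cells, and after thinning in 2.82% of columnar and 4.87% of blood-derived-like cells. Of the columnar cells, 3 held 20, 13 and 14 of the 129 Krt5 UMIs and had UMIs of 8 or 9 of the 12 squamous markers.

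Krt19, Krt8, Krt18, Krt83 and Krt23 differed between the 2 clusters of the class in the same direction in both libraries, though not by the same size for Krt19 and Krt8. The smaller was led by Cxcl15, Pigr and Wfdc15b and is called gland-like here, although of these only Cxcl15 is among the 5 fixed gland markers. Over the whole columnar class all 5 were detected in DOX plus AMH but 2 in DOX, at 76.1 and 47.5 CPM in sum. In squamous epithelial-like cells of DOX plus AMH the 5 summed to 95.2 CPM. The gland-like cluster had 24 cells in DOX plus AMH and 70 in DOX and a low median depth of 3990 UMIs over both. The larger had 124 and 279 cells. Krt19 was low in the gland-like cluster, at 46.3 CPM in DOX plus AMH and 123 CPM in DOX, against 365 and 428 CPM in the larger cluster. Krt8 was lower there too, at 330 and 292 CPM against 507 and 623 CPM, while Krt18 was higher, at 924 and 705 CPM against 703 and 609 CPM. In DOX plus AMH the gland-like levels leaned on single cells. The highest cell held 225 of 678 Krt18 UMIs and the highest for Krt8 69 of 242, while the median cell held 1 UMI of each. In DOX the highest cells held 119 of 1018 and 52 of 422. The gland-like cluster was also where the hair keratin Krt83 was highest of any cluster, at 87.2 CPM in DOX plus AMH and 103 CPM in DOX, against 0 and 1.15 CPM in the larger cluster. Those levels rested on few cells, 5 of 24 in DOX plus AMH with at most 30 of the 64 UMIs in a cell, and 21 of 70 in DOX with at most 28 of the 149. Krt23, a type I keratin, had 65.4 and 50.5 CPM against 0.734 and 0.216 CPM. Krt36 and Krt12 were minor members in this class, with 3.58 and 3.71 CPM in DOX plus AMH and 1.83 and 1.96 CPM in DOX. Krt12 was not particular to it: in DOX plus AMH it had 6.14 CPM in the lower-Trp63 squamous cluster and 4.11 CPM in the larger columnar cluster.

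The ratio of Krt18 to Krt8 molecules inside a library was higher in DOX plus AMH than in DOX in all 6 classes that held both libraries, and as a ratio within a library it does not depend on how libraries were scaled. It was 1.48 (1.42 to 1.54) in DOX plus AMH and 1.04 (1.01 to 1.08) in DOX in columnar epithelial-like cells. In mesothelial-like cells it was 1.85 (1.63 to 2.09) and 0.898 (0.795 to 1.01), and in mural-like cells 6.57 (4.74 to 9.32) and 3.09 (2.28 to 4.24). Stromal-like cells gave 2.73 (2.03 to 3.71) and 1.17 (0.977 to 1.40). The intervals did not overlap in these 4 classes, and they also did not overlap in blood-derived-like cells (2.71, 1.09 to 7.64, and 0.563, 0.297 to 1.03), but they did in endothelial-like cells (1.60 and 0.877). Inside the columnar class, the larger cluster had ratios of 1.39 and 0.978, whereas the intervals of the gland-like cluster overlapped (2.80, 2.42 to 3.26, and 2.41, 2.15 to 2.71). Intervals also overlapped within single mural clusters. Cluster 11 had 8.88 (5.37 to 15.6) and 4.10 (2.52 to 6.95), and cluster 14 had 6.71 (3.81 to 12.8) and 2.79 (1.79 to 4.46). In stromal-like cells both genes lay at or below their blood-derived level, so their ratio there is no separate observation. The blood-derived ratio is itself a reading of free RNA, and Krt8 of mural-like cells overlapped the blood-derived level. Both genes stood far above that level in both libraries in columnar and mesothelial-like cells alone. Squamous epithelial-like cells of DOX plus AMH had a ratio of 2.59, and their part in the free RNA was not tested. The last 300 bases of the Krt18 gene share 8.12% of their 30-base words with the locus Gm5200, and Krt8 shares none.

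Mesothelial-like cells had 1208 CPM of keratins in DOX plus AMH and 1067 CPM in DOX (0.18, 0.11 to 0.25). Of 9 keratins counted, 4 were at least 2-fold higher (Krt5, Krt14, Krt15 and Krt76) and none lower, against 3.61% higher and 3.52% lower among all 7323 genes counted in this class. Medians were 0.05 over the 9 keratins and -0.15 over all genes. The simple keratins made up most of the sum. Krt19 had 315 CPM in DOX plus AMH and 437 CPM in DOX (-0.47, -0.60 to -0.35). Krt18 (216 and 209 CPM) and Krt7 (146 and 150 CPM) had intervals that included 0. Krt8 had 117 and 233 CPM, just short of 2-fold lower (-0.99, -1.18 to -0.80). Krt7 is the least certain of these, since 29.5% of the 30-base words in its last 300 bases occur in other genes.

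The 3 squamous keratins of this class rested on few cells. Krt5 had 497 UMIs in DOX plus AMH and 0 in DOX, Krt14 445 and 8, and Krt15 145 and 2. A DOX plus AMH cell of 62222 UMIs held 336 Krt5 and 299 Krt14 UMIs, and it had UMIs of 11 of 12 squamous and 7 of 8 mesothelial markers. Another, of 89971 UMIs, held 126 and 91, with 11 of 12 and 8 of 8. In 2 further cells Krt14 had 19 and 10 UMIs and Krt5 had 0. Without these 4 cells Krt5 had 11.5 CPM in DOX plus AMH and 0 in DOX, Krt14 8.52 and 3.28 CPM, and Krt15 12.1 and 0.820 CPM, at or near the blood-derived levels of DOX plus AMH, and none of the 3 was counted any longer. The summed keratins then had a log2 ratio of -0.34, and Krt8, at 97.4 and 233 CPM, became 2-fold lower (-1.26). All 4 cells were of DOX plus AMH, and the 2 without Krt5 held 64 and 35 of its 400 Krt8 UMIs. Those 2 had UMIs of 8 of 8 mesothelial markers and of 2 and 4 of 12 squamous markers. The Krt8 call therefore depends on leaving out cells rich in simple keratins from 1 library.

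Krt76 was the keratin of mesothelial-like cells that did not rest on those 4. It had 192 UMIs in DOX plus AMH (56.2 CPM, 48.6 to 64.8) and 4 UMIs in DOX (1.64 CPM, 0.447 to 4.20), a log2 ratio of 5.10 (3.72 to 6.99). The UMIs were spread over 47.8% of DOX plus AMH cells, with at most 12 in a cell, and over 2.11% of DOX cells with at most 3. Blood-derived-like cells had 0 Krt76 UMIs in both libraries, which allows up to 3 counts, or 0.720 and 0.643 CPM. Thinned to 2000 UMIs, the mesothelial shares were 7.30% and 1.08%. Without the 4 cells Krt76 had 58.4 and 1.64 CPM (5.15). Of the 196 Krt76 UMIs in kept cells of DOX plus AMH and the 12 in DOX, 192 and 4 were in this class, and squamous epithelial-like cells of DOX plus AMH had 3. Markers of other cell types moved within the mesothelial-like cells too. The 8 smooth muscle markers summed to 291 CPM in DOX plus AMH and 838 CPM in DOX, with 4 of 7 counted 2-fold lower. The 9 macrophage markers summed to 29.9 and 228 CPM, with all 4 counted 2-fold lower, and the 7 dendritic cell markers to 774 and 97.6 CPM, with both counted, H2-Ab1 and H2-Aa, 2-fold higher and the defining Flt3 and Cd209a at 1 UMI each in DOX plus AMH. Their part in the Krt76, Krt8 and Krt19 differences was not tested. Krt76 (chr15:101884351-101892920, minus strand) overlaps Gm44356 on the other strand.

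**Figure D3:**
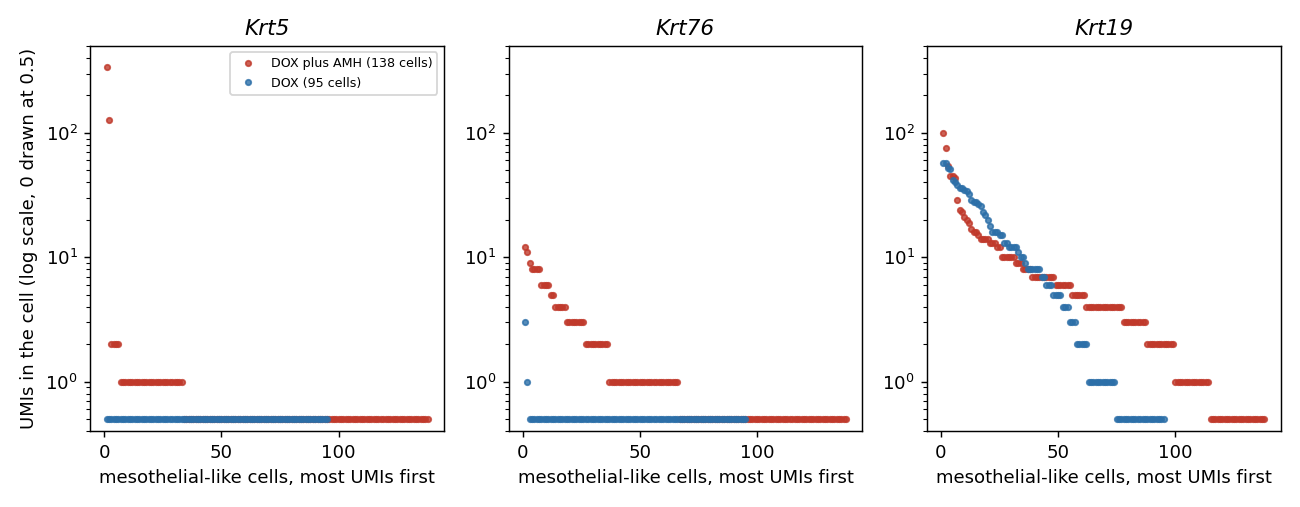
UMIs of Krt5, Krt76 and Krt19 in each mesothelial-like cell (log scale, 0 drawn at the bottom), with cells of each library ranked by their own value, DOX plus AMH in red (138 cells) and DOX in blue (95 cells). Krt5 lies mostly in 2 DOX plus AMH cells with 336 and 126 UMIs, Krt76 is spread over many DOX plus AMH cells with at most 12 UMIs each, and Krt19 overlaps between libraries.

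Genes that anchor keratins were taken as a list of 16 desmosome, plakin and hemidesmosome genes. In columnar epithelial-like cells 12 of the 16 were counted and none was 2-fold apart, with a median log2 ratio of 0.00 against -0.04 for all genes. In mesothelial-like cells 8 were counted and 3 were 2-fold or more higher, where 3.61% of all genes were: Dsp, Dsg2 and Itgb4, which encode desmoplakin, a desmosomal cadherin and an integrin of hemidesmosomes. They had 100, 154 and 82 UMIs in DOX plus AMH and 9, 39 and 24 in DOX. Without the 4 cells named above the 3 had lower levels: Dsp had 6.88 and 3.69 CPM, Dsg2 29.8 and 16.0 CPM, and Itgb4 19.7 and 9.84 CPM. Of 9 epithelial transcription factors, 5 were counted in columnar epithelial-like cells and 2 in mesothelial-like cells with none 2-fold apart, against 0.724% of genes higher and 1.02% lower in the columnar class.

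In the stromal-like, mural-like, endothelial-like and blood-derived-like classes of DOX plus AMH, Krt5, Krt14, Krt15 and Krt13 each stayed within about 2-fold between classes. Krt17 and Krt4 were sparse there, with at most 27 and 4 UMIs in a class, and ranged more widely. Krt5 had 17.3 CPM in stromal-like, 18.0 in mural-like, 23.1 in endothelial-like and 18.7 in blood-derived-like cells of DOX plus AMH, against 0.0423, 0.338, 0.178 and 0 CPM in DOX. Krt14 had 9.59, 10.1, 18.0 and 11.0 CPM in the same 4 classes of DOX plus AMH, and Krt15 9.66, 9.98, 13.3 and 11.0 CPM. The endothelial-like level was the highest of the 4 for all 3 genes, and a pair of its cells held 38 and 12 of its 88 Krt14 UMIs and 36 and 11 of its 113 Krt5 UMIs. The 79 erythroid-like cells of DOX plus AMH, a class not compared because DOX had 4, stood far above this level, with 163 CPM of Krt5, 155 of Krt15, 53.2 of Krt13 and 36.5 of Krt14. In those classes 6 squamous keratins stood at medians of 0.335%, 0.378%, 0.356% and 0.371% of their level in squamous epithelial-like cells, and the 12 squamous markers that are not keratins at 0.351%, 0.428%, 0.428% and 0.587%. The summed level of those 12 markers was 26.9 to 86.6 CPM in these classes of DOX plus AMH and 4.56 to 30.2 CPM in DOX. Keratins and unrelated squamous genes thus appeared in like small proportions in these 4 classes of that library. The summed keratins were correspondingly higher in DOX plus AMH in stromal-like cells (98.4 and 71.8 CPM, 0.45), mural-like cells (96.2 and 49.6 CPM, 0.96) and blood-derived-like cells (92.6 and 37.5 CPM, 1.30). With the blood-derived level of each gene subtracted, the sums of stromal-like and mural-like cells had ratios of -2.57 and -1.76 instead. The subtracted level included Krt80, at 29.3 CPM in DOX plus AMH and 11.8 CPM in DOX in blood-derived-like cells. Krt80 stood above the shared level there and is no reading of free RNA, so these ratios depend on that choice of floor.

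**Figure D4:**
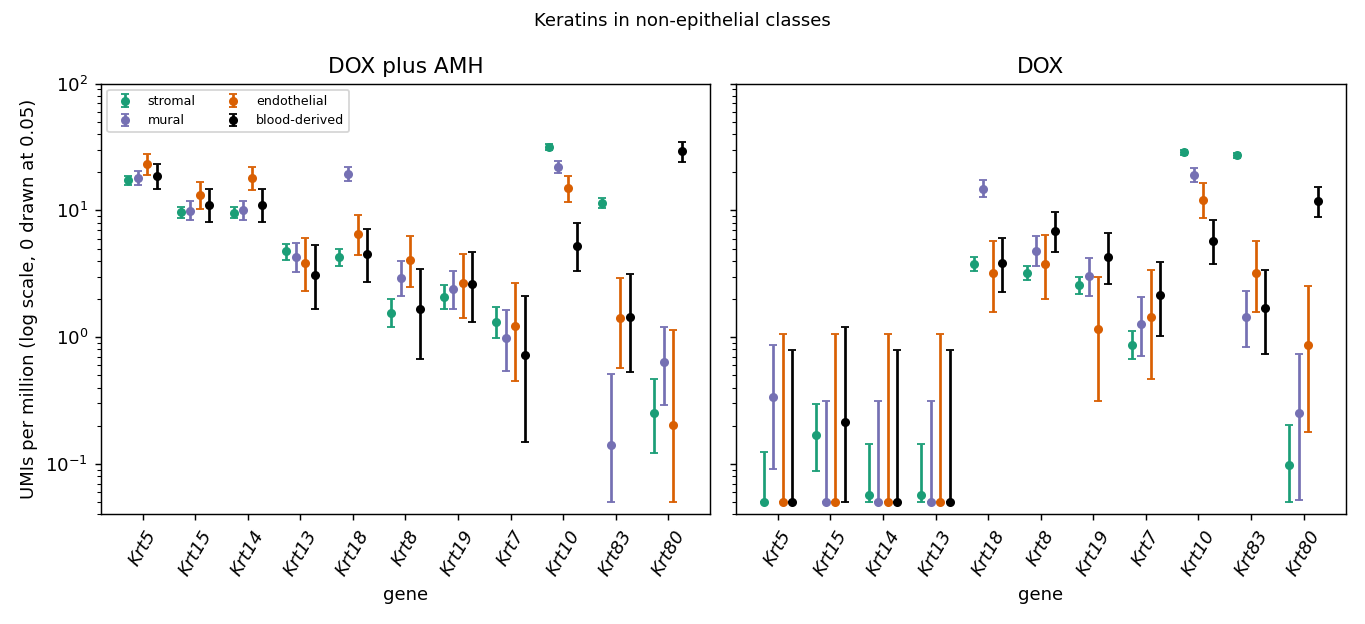
Level in CPM (log scale, 0 drawn at the bottom) with exact 95% Poisson intervals of 11 keratins in stromal-like, mural-like, endothelial-like and blood-derived-like cells of DOX plus AMH (left) and DOX (right); the endothelial values leave out 2 clusters found in DOX alone. Krt5, Krt15, Krt14 and Krt13 are seen in all 4 classes of DOX plus AMH (Krt14 between 9.59 CPM in stromal-like and 18.0 CPM in endothelial-like cells) and lie near 0 in DOX, while Krt18 in mural-like, Krt83 in stromal-like and Krt80 in blood-derived-like cells stand above the other classes.

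Some keratins stood above that floor in particular classes of both libraries. Krt10, a type I keratin of differentiating epidermis, was the most even member, at 31.7 CPM in DOX plus AMH and 28.7 CPM in DOX in stromal-like cells and 22.1 and 19.1 CPM in mural-like cells, against 5.28 and 5.78 CPM in blood-derived-like cells. It was between 24.2 and 38.4 CPM in all 7 stromal clusters of both libraries. Krt18 had 19.4 and 14.9 CPM in mural-like cells, 4.26 and 3.86 times the blood-derived level, whereas its partner Krt8 had 2.95 and 4.81 CPM, 1.76 and 0.702 times the blood-derived level, with intervals that overlapped the blood-derived ones in both libraries. The Krt18 level was highest in the 2 main smooth muscle clusters, at 27.7 and 18.2 CPM in the cluster led by Acta1 and at 18.6 and 18.0 CPM in the cluster led by Actg2. In mural-like cells 1 keratin (Krt10) was counted and none was 2-fold apart, against 0.611% higher and 1.12% lower among all 6710 genes.

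Krt83, a type II hair keratin, was the only keratin of stromal-like cells that was 2-fold apart, of 2 counted, where 0.457% of all 6345 genes were higher by that much and 0.709% lower. It had 454 UMIs in DOX plus AMH (11.5 CPM, 10.4 to 12.6) and 1934 UMIs in DOX (27.3 CPM, 26.1 to 28.5), a log2 ratio of -1.25 (-1.40 to -1.10). Blood-derived-like cells had 1.44 and 1.71 CPM. Krt83 had a UMI in 7.22% of stromal-like cells of DOX plus AMH and 17.8% of those of DOX, and after thinning to 2000 UMIs in 1.79% and 4.62%, against 0.287% and 0.442% of blood-derived-like cells. The lower level in DOX plus AMH was seen in 7 of 7 stromal clusters. In the largest, led by A2m and Cxcl14, Krt83 had 15.8 CPM in DOX plus AMH and 40.7 CPM in DOX, and in the next, led by Frmpd4 and Inmt, 10.9 and 29.0 CPM. The intervals overlapped in 3 of the 7, the clusters numbered 1 (24.5 and 24.9 CPM), 8 (5.89 and 10.3 CPM) and 12 (2.01 and 3.71 CPM). The neighbours of Krt83 on chromosome 15 named next were sparse. Those with UMIs in stromal-like cells had fewer in DOX plus AMH there, as Krt83 did, whereas over all kept cells Krt84 and Krt88 did not. In stromal-like cells Krt86 had 14 UMIs in DOX plus AMH and 53 in DOX, Krt87 4 and 27, Krt81 2 and 14, Krt84 2 and 5, and Krt88 0 in both. In all kept cells Krt84 had 9 and 8 UMIs and Krt88 6 and 3, with intervals of the ratio that included 0 on the log2 scale. The gland-like cluster, where Krt83 was highest, had 87.2 and 103 CPM with overlapping intervals. No word of the last 300 bases of Krt83 occurs in another gene, whereas 53.9% of those of Krt87 occur in Gm49425.

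Krt80, a type II keratin of many epithelia, was the only keratin counted in blood-derived-like cells and was 2-fold higher there, where 1.89% of all 6676 genes were higher by that much and 2.85% lower. It had 122 UMIs in DOX plus AMH (29.3 CPM, 24.3 to 34.9) and 55 in DOX (11.8 CPM, 8.87 to 15.3), a log2 ratio of 1.31 (0.84 to 1.80). Stromal-like cells had 0.252 and 0.0987 CPM, so the blood-derived level stood above the one that other non-epithelial classes share. Krt80 had a UMI in 18.3% of blood-derived-like cells of DOX plus AMH and 8.85% of those of DOX (4.30% and 1.55% after thinning). The macrophage-like cluster had 24.0 CPM in DOX plus AMH and 12.1 CPM in DOX. The cluster led by Igkc, Cd209a and H2-Aa had 55.8 and 13.1 CPM over 71 and 126 cells. The lymphocyte-like cluster had 3.66 and 7.04 CPM. The make-up of the blood-derived-like cells differed as well: 4 mast cell markers summed to 1.44 CPM in DOX plus AMH and 245 CPM in DOX, 5 neutrophil markers to 359 and 74.3 CPM, 5 erythroid markers to 6265 and 16.3 CPM, and 9 macrophage markers to 8357 and 9241 CPM. Their part in the Krt80 difference was not tested. Of the last 300 bases of Krt80, 9.23% of 30-base words occur in other genes.

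**Figure D5:**
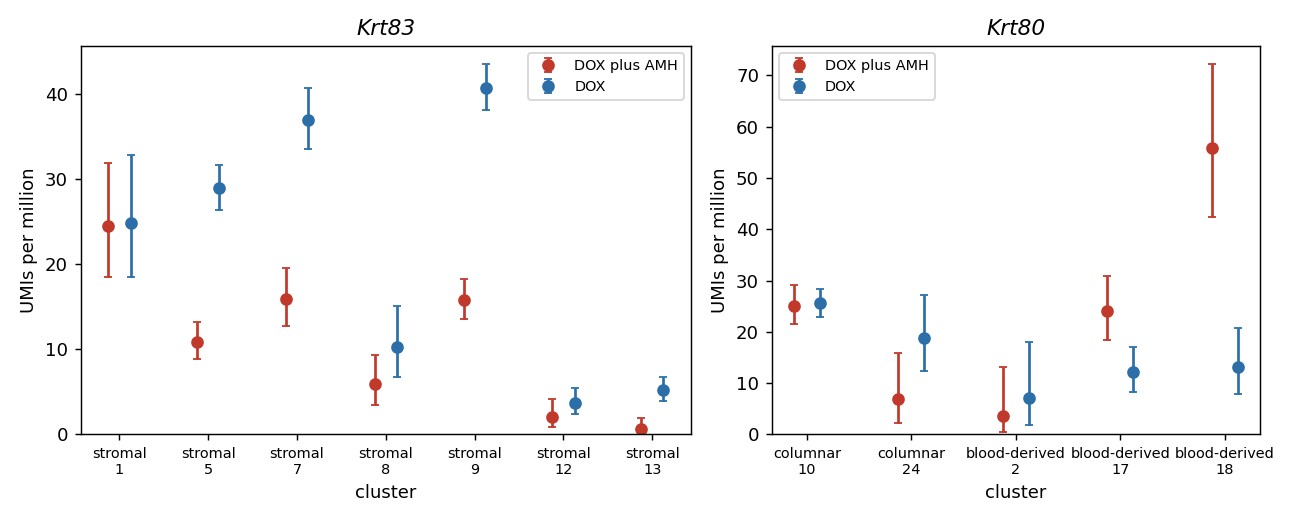
Level in CPM with exact 95% Poisson intervals of Krt83 in the 7 stromal-like clusters (left) and of Krt80 in columnar and blood-derived-like clusters (right), DOX plus AMH in red and DOX in blue. Krt83 is lower in DOX plus AMH in the clusters numbered 5, 7 and 9 and of like level in cluster 1 (24.5 and 24.9 CPM), and Krt80 is higher in DOX plus AMH in the macrophage-like cluster 17 (24.0 and 12.1 CPM) and in cluster 18 (55.8 and 13.1 CPM).

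Endothelial-like cells had 103 CPM of keratins in DOX plus AMH and 215 CPM in DOX (-1.06, -1.21 to -0.91). Of 4 keratins counted, 1 was at least 2-fold higher (Krt5) and 3 at least 2-fold lower (Krt8, Krt18 and Krt19), against 1.67% higher and 4.61% lower among all 7544 genes. The lower calls came from 2 clusters of 70 and 41 cells that held DOX cells alone. The larger had 199 CPM of Krt8 and 170 CPM of Krt18, with 194 CPM of the epithelial gene Epcam, and the smaller 58.0, 59.5 and 53.7 CPM. Without them 299 and 213 cells remained, the sum was 103 and 35.6 CPM (1.54), Krt8 had 4.08 and 3.76 CPM and Krt18 6.53 and 3.19 CPM, and only Krt5 was called. Of the 9 epithelial transcription factors 3 were counted over all endothelial-like cells, and Elf3 (5 and 114 UMIs) and Klf5 (16 and 117 UMIs) were 2-fold lower. Without the 2 clusters they had 5 and 7 and 16 and 8 UMIs, too few to be counted. Krt23 was a member of vascular endothelial-like cells, with 9.34 CPM in DOX plus AMH and 9.47 CPM in DOX in the cluster led by Flt1, where Krt222 had 5.81 and 5.26 CPM. Neither Krt23 nor Krt222 exceeded 0.240 CPM in blood-derived-like cells.

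Over all kept cells Krt10 had 2726 UMIs in kept cells of DOX plus AMH and 3029 in DOX, Krt83 548 and 2291, Krt17 2455 and 143, Krt80 678 and 478, Krt1 172 and 108, and Krt23 113 and 118. Among the rarer members, those with more in DOX plus AMH were Krt4 (385 and 5 UMIs), Krt16 (306 and 0), Krt75 (62 and 5), Krt78 (40 and 2), Krt77 (38 and 3) and Krt2 (26 and 5), of which 377, 297, 55, 37, 34 and 21 lay in the squamous epithelial-like cells of DOX plus AMH. Krt12, a corneal keratin, had 98 and 64 UMIs, Krt222 59 and 83, Krt20 55 and 59, Krt79 38 and 44, Krt86 19 and 60, Krt36 35 and 32, and Krt87 9 and 38. Krt20, an intestinal keratin, lay mostly in 1 stromal cluster, at 3.62 CPM in DOX plus AMH and 2.75 CPM in DOX. The 18 members between 1 and 19 UMIs summed to 134 UMIs over both libraries.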

How the data were processed

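The authors deposited raw UMI counts per gene and barcode, made with Cell Ranger 7.0.0 on mm10 per the submitters' processing notes. The lowest deposited barcode total was 500 UMIs in both libraries, so barcodes had been filtered before deposit. A barcode was kept with 1000 or more UMIs, 500 or more genes and no more than 15% of UMIs from mitochondrial genes, which left 7065 in the DOX plus AMH library and 7783 in the DOX library. Scrublet scores over 0.2, a limit set after its own threshold had failed, removed 320 and 367 of them as doublets (4.53% and 4.72%). Cells were clustered in scanpy 1.11.5 on 2000 variable genes without keratins, with 30 components, 15 neighbours and Leiden resolution 1 (igraph 0.11.9). Clusters were named from fixed marker lists under rules completed after the data had been seen (at least 3 detected markers, at least 50% of cells holding 2 markers, and no more of another class's markers than its own among the top 10 genes), so class names are rebuilt. The smaller erythroid-like, glial-like and unnamed clusters were not compared.

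For each class of a library the UMI counts of its cells were added up and expressed as CPM of the total over all genes. Levels have exact Poisson intervals and log2 ratios exact binomial ones at 95%, which cover counting error between these pools and no spread between animals. Genes were counted as 2-fold apart among those with at least 100 UMIs over both libraries and 20 CPM in the higher, with a floor of 3 counts where a library had 0. Classes needed 50 cells in each library. The ratios were tried on simulated counts drawn at the levels of the columnar class with counting error alone. That trial held no spread between cells or animals, so it does not cover ratios carried by single cells. The family, its class comparisons and the gene lists were chosen with earlier results of these data known. Keratins with at least 20 UMIs are named with their UMIs, and those among the first 15 or the 6 highest of a class with values by class. TMM factors came from edgeR 4.0.16 in R 4.3.3. Depth was unequal, with medians of 10109 and 13747 UMIs per kept cell.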

Additional observations from a re-analysis of the deposited data

Results flagged for a closer look

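Krt6a and Krt6b, type II keratins of wounded and suprabasal epithelium whose symbols end in a letter, stood outside the family as defined. In kept cells Krt6a had 4515 UMIs in DOX plus AMH and 0 in DOX, and Krt6b 792 and 0. Both were mostly in the lower-Trp63 squamous cluster, with 4296 and 766 UMIs there and 139 and 17 in the higher-Trp63 cluster, log2 differences of 5.33 and 5.87. The near-identical sequence of the Krt6 copies was not examined here. Krt5 had 163 CPM in the 79 erythroid-like cells of DOX plus AMH and 0 in the 4 of DOX, a class not compared. Barcodes that were not kept had 0.150% of their UMIs in keratins in DOX plus AMH (1338 barcodes) and 0.0460% in DOX (1842 barcodes).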

How the results depend on the processing

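No paired analysis was possible because each group was 1 library. Log2 ratios of summed keratins moved as follows. Over the whole library (2.68) they were 2.62 with no cell filter, 2.79 with a stricter one, 2.65 with doublets kept and 2.50 with TMM scaling, which shifted the median of genes by -0.20 to 0.15 across classes. In columnar epithelial-like cells (-0.05) they were -0.0204 with doublets kept, 0.0885 with a marker gate per cell and -0.10 with free RNA subtracted. Mesothelial-like cells (0.18) gave -0.14 with the gate, 0.33 with TMM and -0.34 without the 4 cells of 10 or more squamous keratin UMIs. Stromal-like cells (0.45) gave 0.52 at Leiden resolution 0.5, 0.28 with the gate, 0.25 with TMM and -2.57 with free RNA subtracted, and mural-like cells (0.96) 0.70 with the gate and -1.76 with free RNA subtracted. Endothelial-like cells (-1.06) gave 0.21 with doublets kept, 0.23 with the gate, -4.04 with free RNA subtracted and 1.54 without the 2 clusters of DOX cells, where Krt19, Krt8 and Krt18 had 1.20, 0.12 and 1.04. Blood-derived-like cells (1.30) gave 2.36 with doublets kept and 0.0658 with the gate. The keratin share of squamous epithelial-like cells (1.28%) was 1.25% with doublets kept, 1.34% with the gate, 1.35% over nuclear genes and 1.27% with free RNA subtracted. Keratins 2-fold apart in columnar epithelial-like cells (0) were 1 with no filter, 1 with doublets kept, 2 with the gate and 1 with free RNA subtracted. The gate gave 1 in mesothelial-like (4), 4 in stromal-like (1), 1 in mural-like (0), 2 in endothelial-like (4) and 2 in blood-derived-like cells (1). Leaving out the cells or clusters named gave 2 in mesothelial-like and 1 in endothelial-like cells, and keeping doublets gave 4 in blood-derived-like cells. The share of all genes 2-fold apart was taken under the main setting alone. The counts under other settings thus have no share beside them and show only how the calls moved. The free RNA subtracted included the Krt80 of blood-derived-like cells, and it was scaled to the total UMIs of a class rather than to its number of cells. The ratios of stromal-like, mural-like and endothelial-like cells with free RNA subtracted depend on that choice. The cause of each move was not tested. Leaving out cells or clusters and the runs in stromal-like, mural-like and endothelial-like cells were chosen after seeing the data. Krt83 in stromal-like cells stayed between -1.46 and -1.15 over 9 alternatives, Krt76 in mesothelial-like cells between 4.50 and 5.25 over 10, and Krt80 in blood-derived-like cells between 1.21 and 1.39 over 8. Clusters of few cells and members under 100 UMIs are limited by depth.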
